A study of Mus musculus with 1009 samples.

Results

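Acute dietary restriction (aDR) was compared with feeding ad libitum (AL) in 3 cortices, the motor (mot. cortex), the visual (vis. cortex) and the entorhinal (ent. cortex), of female C57BL/6JN mice aged 19 months. The libraries were chosen by the region in their labels, which gave 22 of the 113 libraries of the diet experiment and of the 1009 libraries of the whole series. The restricted mice had been moved at 18 months of age to 10% restriction for 7 days and then to 25%, with 1 meal a day in the afternoon, and both groups were killed in the morning before that meal. Mot. cortex had 2 aDR and 4 AL libraries, vis. cortex had 5 and 4, and ent. cortex had 4 and 3. They came from 9 mice, 5 on aDR (mice 61, 62, 64, 65 and 67) and 4 on AL (mice 63, 66, 68 and 69). Of these mice, 4 gave libraries of all 3 cortices and 5 gave libraries of 2, so libraries of different cortices share animals and the mouse was kept as a block wherever cortices were combined. The regions were punched from frozen brain sections and sequenced in bulk, so fewer cells of a type and less of a miRNA per cell cannot be told apart.

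MicroRNAs (miRNAs) are small RNAs that guide Argonaute proteins to mRNAs, mostly through pairing of the seed, bases 2 to 8 of the mature strand. A miRNA hairpin can release a strand from its 5′ arm (-5p) and one from its 3′ arm (-3p), which arise from the same transcript but have different seeds and different stability. Brain tissue is rich in miR-124, miR-9 and let-7 miRNAs. MiR-132 and miR-212 are made from 1 transcript that neuronal activity induces, and miR-451a and miR-144 share a transcript that is abundant in red blood cells. Dietary restriction lowers circulating insulin and IGF-1 and shifts tissues toward the use of fat, and several miRNAs on the lists below are known from those pathways.

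The mature sequences on which the comparisons turn are given from RefSeq (GRCm38.p6), 5′ to 3′, with the seed in capitals. RefSeq entries matched 50 of the 61 miRNAs looked up. The first set shows why the arms and relatives of the miRNA with the smallest p in mot. cortex can be set apart by sequence: miR-132-3p and miR-212-3p share their seed, and miR-132-5p comes from the other arm of the miR-132 hairpin.
miR-132-3p: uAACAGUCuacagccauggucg
miR-132-5p: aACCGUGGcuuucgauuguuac
miR-212-3p: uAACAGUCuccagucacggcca
The next set holds the other miRNAs with the smallest p among those upregulated in mot. cortex, none of which shares a seed with miR-132-3p.
miR-128-1-5p: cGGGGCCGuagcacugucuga
miR-7075-3p: cAACCAUGucuucuuucccag
miR-668-3p: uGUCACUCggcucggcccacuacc
miR-218-5p: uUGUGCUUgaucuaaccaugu
Upregulated miRNAs of ent. cortex follow, together with miR-429-3p, which has the seed of miR-200c-3p. The seed of miR-141-3p is another one.
miR-200c-3p: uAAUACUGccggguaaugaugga
miR-429-3p: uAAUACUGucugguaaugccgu
miR-141-3p: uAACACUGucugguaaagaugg
miR-183-5p: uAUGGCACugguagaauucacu
miR-182-5p: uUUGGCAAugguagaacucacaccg
The last set holds miRNAs from those with the smallest p over the 3 cortices, and the erythroid miR-451a and the age-linked miR-155-5p and miR-146a-5p.
miR-324-3p: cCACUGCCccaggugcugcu
miR-770-5p: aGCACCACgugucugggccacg
miR-3072-3p: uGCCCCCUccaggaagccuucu
miR-376b-3p: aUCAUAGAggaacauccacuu
miR-451a: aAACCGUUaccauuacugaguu
miR-155-5p: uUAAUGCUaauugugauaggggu
miR-146a-5p: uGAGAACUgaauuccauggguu

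In GRCm38, mature miR-132-3p lies at chr11:75173723-75173744 on the plus strand and miR-212-3p at chr11:75173443-75173464, both in an intron of the noncoding gene 1700016P03Rik. MiR-128-1-5p is intronic in R3hdm1 at chr1:128202369-128202389, also on the plus strand. MiR-200c-3p at chr6:124718324-124718346 and miR-141-3p at chr6:124717917-124717938 are neighbours on the minus strand, as are miR-183-5p at chr6:30169711-30169732 and miR-182-5p at chr6:30165962-30165986. MiR-376b-3p at chr12:109723508-109723528, miR-668-3p at chr12:109734774-109734797, miR-770-5p at chr12:109563710-109563731 and miR-3072-3p at chr12:109747928-109747949 lie on the plus strand of the imprinted Meg3 to Mirg region, miR-770-5p in an exon of Meg3 and miR-3072-3p in an exon of Mirg. MiR-451a lies at chr11:78073186-78073207, next to miR-144-3p at chr11:78073047-78073066, both on the plus strand and in no other annotated gene.

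The cortex libraries held 1137450.0 to 18750145.0 miRNA reads, with a median of 9326020.0, and the ent. cortex library of aDR mouse 67 had the fewest. Levels are CPM, counts divided by library size and scaled with TMM factors over the 22 libraries, and these factors ran from 0.537 to 1.99, both extremes in ent. cortex. Between 713 and 1141 miRNAs were detected per library, the lowest number again in ent. cortex. Summed neuronal markers (10 of 10 members tested, led by miR-124-3p) reached 108380 to 392530 CPM and the 4 hindbrain markers never exceeded 2.27 CPM, so neuronal markers were abundant and hindbrain markers were near 0. Markers of the olfactory bulb summed to 1860 CPM in ent. cortex of aDR mouse 62, while in mot. and vis. cortex the highest sum was 292 CPM, in mot. cortex of AL mouse 69. A miRNA was called when the adjusted p was below 0.05 and the fold change at least 1.5, log2 differences are aDR minus AL, and values of a group are listed in the order of the mouse numbers.

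Over the 3 cortices together, no miRNA passed the test: limma called 0 of 1303 miRNAs (0%), with 82 at an unadjusted p below 0.05 (62 higher and 20 lower in aDR), and edgeR without the mouse block also called 0, with 101 below that p. Where the mean level reached 10 CPM or more, the 5 miRNAs with the smallest p and higher levels in aDR were miR-324-3p, miR-328-3p, miR-6915-3p, miR-3072-3p and miR-770-5p, and the 5 with lower levels were miR-376b-3p, miR-185-5p, miR-3099-3p, miR-106b-5p and let-7j. The log2 differences of these 10 ran from -0.81 for miR-376b-3p to 0.87 for miR-6915-3p, and each had the same sign in each of the 3 cortices fitted alone. They were chosen by their p over these same libraries, which favours equal signs, so the shared sign is no separate observation. The adjusted p of all of them lay between 0.618 and 0.775 (limma), so none passed the threshold against the spread between libraries.

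MiR-328-3p, a brain-rich miRNA known to target beta-secretase 1 mRNA, stood at 2641 and 1785 CPM in mot. cortex of aDR mice and at 1992, 1739, 765 and 765 in AL mice. In vis. cortex it stood at 2465, 1626, 1499, 1061 and 826 CPM in aDR and 1165, 1028, 799 and 774 in AL, and in ent. cortex at 2366, 2046, 1696 and 1393 against 1371, 1361 and 978. Mouse 61 gave the highest aDR value in each of the 3 cortices, the 4 aDR values of ent. cortex were all above the 3 AL values, and the groups overlapped in mot. and vis. cortex. Among all miRNAs tested, the CPM of the diets did not overlap for 16.8% in mot. cortex, 1.27% in vis. cortex and 2.04% in ent. cortex. The pooled log2 difference was 0.66 (SE 0.20, limma adjusted p = 0.618). MiR-324-3p differed by 0.60 (SE 0.18), with 226, 123, 158, 102 and 114 CPM in aDR vis. cortex and 89.7, 82.3, 106 and 99.6 in AL vis. cortex, where the aDR library of mouse 65 lay within the AL range. In mot. cortex it reached 153 and 148 CPM in aDR against 138, 137, 64.7 and 88.1 in AL, and in ent. cortex 123, 93.7, 84.8 and 117 against 54.8, 82.9 and 54.7, with no overlap in either. MiR-6915-3p, a low-count miRNA annotated in an intron of Ankrd52, had a pooled log2 difference of 0.87 (SE 0.27). In mot. cortex it was called higher in aDR (log2 difference 1.27, edgeR adjusted p = 0.0352), with overlapping groups, but not with DESeq2 or total count scaling.

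MiR-770-5p and miR-3072-3p come from the imprinted region on chromosome 12 that also holds the miR-379/410 cluster. For miR-770-5p the vis. cortex values were 161, 118, 121, 69.6 and 57.5 CPM in aDR and 81.4, 63.1, 54.7 and 50.3 in AL, and the pooled log2 difference was 0.73 (SE 0.24). In mot. cortex miR-770-5p was called higher in aDR (log2 difference 1.01, edgeR adjusted p = 0.0329), without overlap. Neither DESeq2 nor total count scaling gave that call. For miR-3072-3p they were 33.8, 29.4, 26.7, 26.9 and 21.1 CPM against 19.6, 20.9, 13.5 and 9.45, with every aDR library above every AL library, and the pooled log2 difference was 0.80 (SE 0.26). The opposite direction was seen for miR-376b-3p, which belongs to the miR-379/410 cluster itself. Its levels were 91.2 and 173 CPM in aDR mot. cortex against 216, 211, 309 and 341 in AL, without overlap. In vis. cortex they were 237, 528, 278, 276 and 350.5 against 275, 627, 836 and 659.9, and in ent. cortex 175, 73.3, 145 and 129 against 72.9, 466.04 and 181, with overlap in both. Its pooled log2 difference was -0.81 (SE 0.26, limma adjusted p = 0.618), and without AL mouse 63, whose vis. and ent. cortex values were the lowest of the AL group, it was -1.20 and the 1 miRNA called.

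The other miRNAs lower in aDR differed less. MiR-185-5p had a pooled log2 difference of -0.48 (SE 0.18), with 931, 1223, 1222, 1656 and 1843 CPM in aDR vis. cortex and 1403, 2132, 2218 and 2171 in AL. MiR-106b-5p, which lies in an intron of the replication gene Mcm7 and has the seed of the miR-17 family, differed by -0.52 (SE 0.21), miR-3099-3p by -0.59 (SE 0.22) and let-7j by -0.42 (SE 0.18). The groups of these 4 miRNAs overlapped in every cortex.

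**Figure D1:**
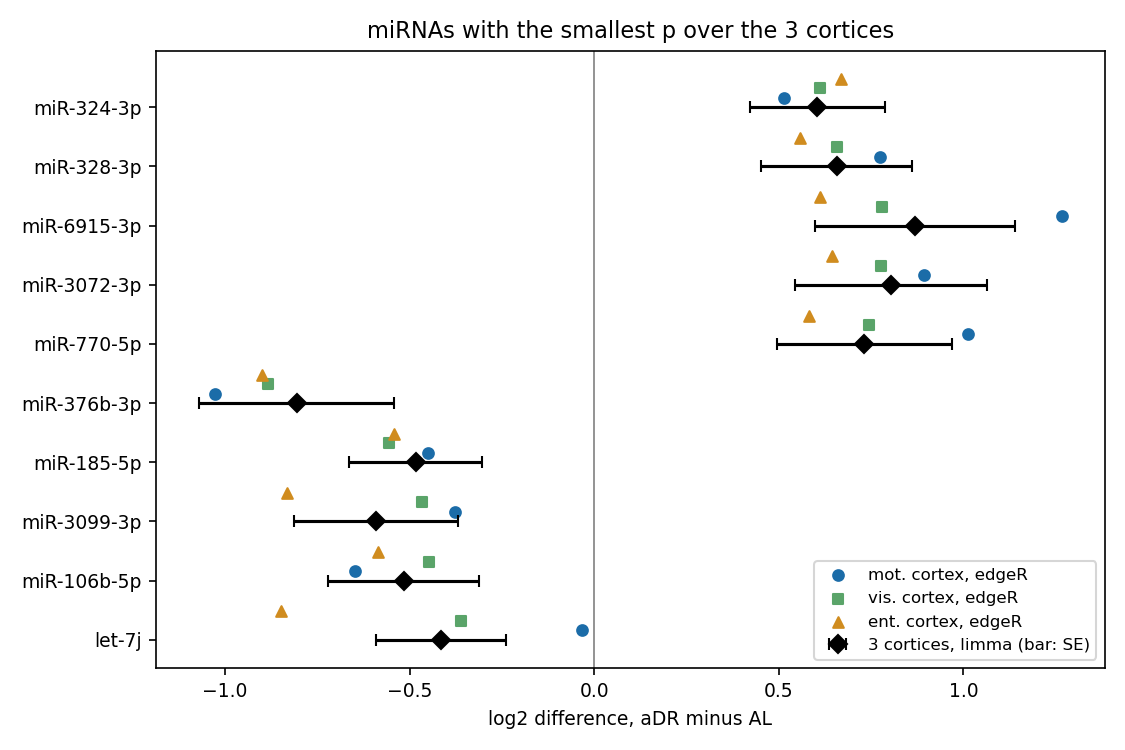
The 10 miRNAs with the smallest p over the 3 cortices, by their log2 difference between aDR and AL mice (horizontal axis). Black diamonds with bars give the pooled limma estimate and its SE, and coloured symbols give the edgeR estimate of each cortex. The latter lies on the same side of 0 as the pooled one for each miRNA, which the choice by pooled p favours. No pooled difference passed the threshold.

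In mot. cortex, edgeR called 28 of 1265 miRNAs (2.21%), of which 24 were higher and 4 lower in the 2 aDR libraries than in the 4 AL libraries. With total count scaling it called 11, of which 7 were higher and 4 lower. Groups did not overlap for 22 of the 28, and among all 1265 miRNAs tested they did not overlap for 16.8%. The 28 were chosen by these same values, so their separation is no separate observation. Of the 28, 19 averaged at least 10 CPM. MiR-6990-3p and miR-1231-3p, both among the 22, had 0 reads in each of the 4 AL libraries and 19 and 16 reads in the 2 aDR libraries together. MiR-132-3p had the smallest p. It stood at 4370 and 4074 CPM in the aDR libraries of mice 61 and 65 and at 213, 80.0, 83.4 and 58.5 in the AL libraries, a log2 difference of 5.30 (SE 0.29, edgeR adjusted p = 1.44e-28). The other arm of its hairpin, miR-132-5p, had 385 and 179 CPM in aDR and 189.5, 205, 151 and 155 in AL, with overlapping groups and a log2 difference of 0.70 (SE 0.27, edgeR adjusted p = 0.211). MiR-212-3p, made from the same transcript, had 2079 and 2697 CPM against 2191, 1436, 1624 and 1387 and a log2 difference of 0.54 (SE 0.25, edgeR adjusted p = 0.418). Only the 3′ strand of miR-132 was thus called among the 5 activity-regulated miRNAs tested in mot. cortex, whose median log2 difference was 0.54 against 0.02 for all miRNAs tested there.

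The spread of miR-132-3p was wide within each diet in the other cortices. Vis. cortex had 764, 54.7, 693, 35.4 and 149 CPM in aDR mice 61, 62, 64, 65 and 67 and 52.0, 50.0, 209 and 2078 in AL mice 63, 66, 68 and 69, and ent. cortex had 89.4, 324, 440.1 and 17.7 against 299.9, 45.3 and 134. The highest value of vis. cortex belonged to AL mouse 69 and that of ent. cortex to aDR mouse 64, and mouse 65, at 4074 CPM in mot. cortex, had the lowest level of vis. cortex. In the 91 libraries of the other regions of the diet experiment, scaled over all its libraries, miR-132-3p ran from 2.45 to 4179 CPM in AL (median 53.6) and from 2.40 to 66093 CPM in aDR (median 116), while miR-132-5p ran from 12.8 to 128 CPM in AL and from 0 to 168 in aDR. In vis. cortex of the aging cohort, which was fed ad libitum and scaled on its own, miR-132-3p averaged 6316 ± 9346 CPM (SD, n = 5) in females of 3 months. In mot. cortex of that cohort it averaged 123 ± 58.6 CPM at 3 months and 325 ± 157 CPM at 21 months (SD, n = 5 each). The part of this spread in the mot. cortex difference was not tested.

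**Figure D2:**
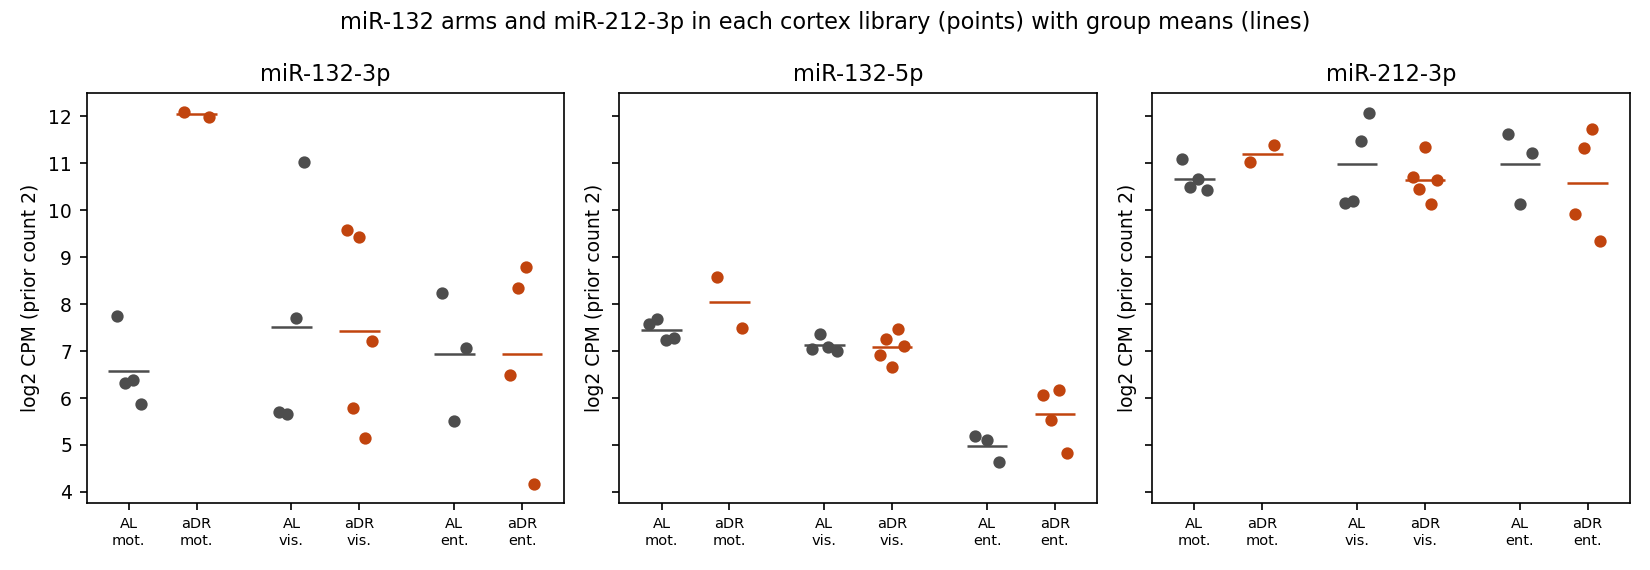
Levels of miR-132-3p, miR-132-5p and miR-212-3p in each of the 22 cortex libraries (points, log2 CPM with a prior count of 2), by cortex and diet, with group means as lines. The 2 aDR libraries of mot. cortex stand above the AL libraries for miR-132-3p, whose highest value in vis. cortex belongs to an AL library, while the diets overlap in each cortex for miR-132-5p and miR-212-3p.

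The next 4 upregulated miRNAs by p in mot. cortex were miR-128-1-5p, miR-7075-3p, miR-668-3p and miR-218-5p. MiR-128-1-5p, from the 5′ arm of a hairpin whose 3′ arm gives the neuronal miR-128-3p, stood at 208 and 254 CPM in aDR and 41.4, 13.6, 13.0 and 5.17 in AL (log2 difference 3.67, SE 0.33, edgeR adjusted p = 4.65e-16), whereas miR-128-3p had 8310 and 5691 CPM against 5731, 6567, 4688 and 6368 (edgeR adjusted p = 0.784). MiR-218-5p, a motor neuron and neuronal miRNA encoded in introns of Slit2 and Slit3, stood at 4525 and 5592 CPM against 3087, 1618, 1405 and 1192 (log2 difference 1.49, SE 0.26, edgeR adjusted p = 3.64e-05). MiR-668-3p of the imprinted chromosome 12 region had 1439 and 1174 CPM against 772, 426, 308 and 180.2 (log2 difference 1.65, SE 0.28). All of these groups were separate in mot. cortex except for miR-128-3p. MiR-7075-3p rested on few reads, 96 and 65 in the aDR libraries and 11, 4, 0 and 1 in the AL libraries. In vis. cortex the library of AL mouse 69, highest for miR-132-3p, was also the highest for miR-128-1-5p (131 CPM), for miR-218-5p (6835 CPM) and for miR-7075-3p (0.909 CPM). For miR-668-3p it stood at 786 CPM, just under the 801 CPM of aDR mouse 64. None of the 5 was called in vis. or ent. cortex.

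The 4 downregulated miRNAs of mot. cortex were miR-6240, miR-6238, miR-429-3p and miR-376b-3p. MiR-6240 had 10.8 and 2.52 CPM in aDR and 39.0, 16.4, 35.7 and 14.4 in AL (log2 difference -1.96, SE 0.39, edgeR adjusted p = 5.00e-04), and miR-6238 had 0.828 and 0.755 against 5.50, 1.92, 6.03 and 2.94 (log2 difference -2.36, SE 0.48). The diets were separate for both. Without aDR mouse 61 the difference of miR-6240 was -3.38, and without aDR mouse 65 it was -1.28 and no longer called (edgeR adjusted p = 0.210). MiR-6238 was not called without either of them, at -2.43 and -2.30. MiR-376b-3p, with a log2 difference of -1.03, was not called without mouse 61 (-0.64), mouse 68 (-0.93) or mouse 69 (-0.91), nor in DESeq2 (adjusted p = 0.0851). MiR-429-3p, a miR-200 family member of olfactory and epithelial tissue, had 9.61 and 19.1 CPM against 15.4, 25.1, 18.9 and 107 and overlapping groups, the highest AL value being that of mouse 69 (log2 difference -1.53, SE 0.40, edgeR adjusted p = 0.0204). Without the library of mouse 69 the log2 difference was -0.47 and the call was lost (edgeR adjusted p = 0.851), as it was without mouse 61 (-1.12) or mouse 65 (-2.11) and in DESeq2 (adjusted p = 0.624). All 8 olfactory bulb markers were lower in aDR mot. cortex, 1 of them called, where 51.0% of all miRNAs tested were higher and 2.21% were called. Their sum was 28.6 and 52.3 CPM in aDR against 29.4 to 292 CPM in AL, the highest again in mouse 69. The part of these markers in the other calls of mot. cortex was not tested.

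Of the remaining called miRNAs of mot. cortex, miR-874-3p, both strands of miR-490, which is intronic in the muscarinic receptor gene Chrm2, let-7d-3p, miR-30a-3p, miR-342-5p and miR-7b-5p were all higher in aDR. Their log2 differences were 1.15 for miR-874-3p, 1.14 for miR-490-5p and 1.12 for miR-490-3p. They were 1.19 for let-7d-3p, 0.90 for miR-30a-3p, 0.97 for miR-342-5p and 0.86 for miR-7b-5p. The groups overlapped for let-7d-3p, miR-490-3p and miR-342-5p. Of these miRNAs, DESeq2 called only miR-874-3p and miR-490-5p, and total count scaling called none. The 22 upregulated miRNAs with a RefSeq sequence had a median GC content of 59.1%, against 52.4% for the 1061 tested miRNAs with a sequence, and 45.5% of them ended in G, against 31.6%. Of the 4 downregulated ones 50% ended in G, as did 42.9% of the 7 upregulated ones of ent. cortex with a sequence. The median length was 22 bases in both sets of mot. cortex, upregulated and tested, and 45.5% against 43.4% began with U. These features were not tested. The 28, chosen by their mot. cortex values, had a median log2 difference of 1.28 in mot. cortex, 0.14 in vis. cortex (27 tested, 0 called) and 0.12 in ent. cortex (28 tested, 0 called), where the libraries come partly from the same mice. The medians of all miRNAs tested were 0.05 in vis. and 0.17 in ent. cortex. The sign was that of mot. cortex for 20 of the 27 in vis. and 19 of the 28 in ent. cortex. Of the 28, 24 were called higher, and 53.9% of all miRNAs tested in vis. cortex and 58.1% in ent. cortex were higher in aDR.

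The mot. cortex count depended on the libraries and on the fit. Without aDR mouse 61 it was 5 (miR-132-3p, miR-128-1-5p, miR-218-5p, miR-7075-3p and miR-6240), without aDR mouse 65 it was 29, without AL mouse 69 it was 11 and without AL mouse 63 it was 51, and with a single aDR library the lone sample was assumed to vary like the AL group. DESeq2 called 11, all of them among the 28, and gave no adjusted p for miR-1231-3p and miR-6990-3p. When the libraries of all 14 regions of the diet experiment shared 1 edgeR fit, 0 miRNAs were called, with 33 at an unadjusted p below 0.05.

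In vis. cortex, which had the most libraries, edgeR called 0 of 1263 miRNAs (0%), DESeq2 also called 0, and 65 and 42 miRNAs had an unadjusted p below 0.05. The smallest p belonged to the erythroid miR-451a. Among miRNAs of at least 10 CPM, miR-1198-5p stood at 38.5, 36.5, 31.0, 29.3 and 26.3 CPM in aDR against 27.6, 18.5, 15.0 and 17.8 in AL, with overlapping groups (log2 difference 0.70, SE 0.26, edgeR adjusted p = 0.723). MiR-30d-3p, the passenger strand of an abundant miR-30 member, stood at 13.1, 17.3, 15.4, 24.6 and 15.6 CPM against 28.1, 23.8, 33.1 and 22.0 (log2 difference -0.68, SE 0.26, edgeR adjusted p = 0.723). MiR-3072-3p, miR-770-5p, miR-376b-3p and miR-185-5p were the other 4 chosen by p in vis. cortex.

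In ent. cortex, edgeR called 10 of 1225 miRNAs (0.816%), 9 higher and 1 lower in aDR. The upregulated ones were miR-200c-3p, miR-375-3p, both strands of miR-183, miR-141-3p, miR-182-5p and 3 miRNAs known from muscle, among them miR-206-3p and miR-133b-3p. MiR-200c-3p and miR-141-3p are markers of epithelial cells, miR-375-3p is known from pancreatic islets and the pituitary and miR-182 and miR-183 from sensory cells. MiR-200c-3p stood at 31.5, 723, 16.7 and 40.3 CPM in aDR mice 61, 62, 64 and 67 and at 13.6, 7.24 and 16.1 in AL mice 63, 66 and 69 (log2 difference 3.93, SE 0.62, edgeR adjusted p = 2.30e-06). MiR-375-3p stood at 559.6, 93928, 1490 and 1076 CPM against 1011, 309 and 474 (log2 difference 5.24, SE 0.85, edgeR adjusted p = 2.30e-06). The library of mouse 62 was the highest for both. The groups did not overlap for miR-200c-3p, while for miR-375-3p mouse 61 lay within the AL range. The 10 had a median log2 difference of 3.53 in ent. cortex, -0.84 in mot. cortex and 0.11 in vis. cortex, with 0 called in either of the latter. The sign was that of ent. cortex for 1 of the 10 in mot. and 7 of the 10 in vis. cortex, where 51.0% and 53.9% of all miRNAs tested were higher in aDR.

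MiR-183-5p stood at 178, 465.96, 5.07 and 14.2 CPM in aDR and 21.7, 5.08 and 5.72 in AL (log2 difference 3.86, SE 0.63, edgeR adjusted p = 2.30e-06). MiR-182-5p, from the same locus, stood at 46.4, 80.8, 1.82 and 2.21 CPM against 5.93, 1.91 and 2.40 (log2 difference 3.21, SE 0.67). Mice 61 and 62 were high for both and mouse 64 lay just under the lowest AL value. MiR-141-3p rested on 21, 177, 2 and 7 reads in aDR and on 0, 1 and 0 in AL. MiR-206-3p had 56.4, 551, 23.2 and 20.8 CPM against 42.6, 23.0 and 25.6, and miR-133b-3p had 28.4, 255, 11.3 and 20.8 against 20.5, 22.6 and 7.85, with the highest value of both in mouse 62. DESeq2 called 1 miRNA in ent. cortex, the same miR-141-3p with at most 1 read in an AL library, and found 20 at an unadjusted p below 0.05. It gave no p for 8 of the 1225, among them 4 of the 10 edgeR calls (miR-200c-3p, miR-375-3p, miR-206-3p and miR-133b-3p), so these were not tested by it. The downregulated miR-1895 stood at 41.6, 51.1, 289.6 and 135 CPM in aDR and 206, 113 and 1000 in AL, where the library of mouse 69 was the highest. Its log2 difference was -1.86 (SE 0.49, edgeR adjusted p = 0.0309), which was -0.31 without it. MiR-7080-5p, next by p among those lower, had 171, 47.7, 151 and 174 CPM against 504, 129 and 226 (edgeR adjusted p = 0.994).

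**Figure D3:**
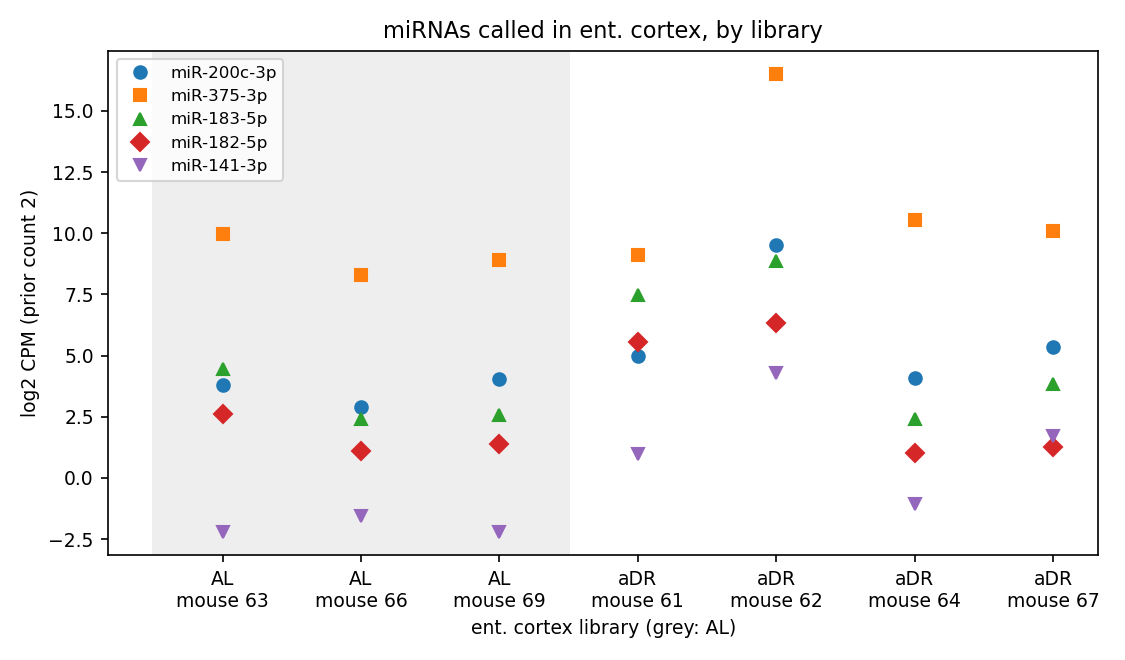
Levels of 5 miRNAs called in ent. cortex in each of its 7 libraries (log2 CPM with a prior count of 2, AL libraries on grey). The library of aDR mouse 62 holds the highest value of each. Mouse 61 follows for miR-183-5p and miR-182-5p, and for these 2 the libraries of mice 64 and 67 lie closer to the AL libraries.

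Of the 8 olfactory bulb markers tested in ent. cortex, 8 were higher in aDR, as were 58.1% of all miRNAs tested, and 4 of them are themselves among the 10 calls (miR-200c-3p, miR-183-5p, miR-182-5p and miR-141-3p), so the list is no separate observation. It had a median log2 difference of 2.57 against 0.17 for all miRNAs tested there, and 0 were at 0 reads in all libraries of a diet. Their sum ranged from 48.3 to 1860 CPM in aDR and from 33.9 to 164 CPM in AL. Across the regions of the diet experiment the highest median of each of these 4 miRNAs was in olfactory bulb, that of miR-375-3p was in the subventricular zone and that of miR-206-3p and miR-133b-3p was in cerebellum. Choroid plexus and ependymal markers summed to 2234 to 20475 CPM in aDR ent. cortex, highest again in mouse 62, and to 4574 to 8614 CPM in AL. The list of olfactory bulb markers includes miR-429-3p, which shares the seed of miR-200c-3p and had 40.5, 524, 23.0 and 25.2 CPM against 112, 15.6 and 12.0 (edgeR adjusted p = 0.347). Also on it, miR-200b-3p had 16.5, 24.1, 0.390 and 4.43 CPM against 5.62, 3.94 and 4.79, and 26.7 to 39.2 CPM in aDR vis. cortex. Its median in olfactory bulb, scaled over all libraries of the diet experiment, was 24802 CPM, as was that of miR-200c-3p. MiR-200a-3p had 2.10, 9.08, 0 and 0 CPM against 3.59, 0 and 0. The part of these other regions and cell types in the calls was not tested. Without the library of mouse 62, 1 miRNA was called, miR-183-5p, and the log2 difference of miR-200c-3p was 1.22 and that of miR-375-3p 0.77. Without AL mouse 69, 5 were called. Without the shallow library of mouse 67, 11 were called, 9 of them among the 10. When the libraries of mice 62 and 67 were both left out, a choice made after seeing the values, 2 were called, miR-182-5p and miR-183-5p. One edgeR fit over all regions called 0, with 130 at an unadjusted p below 0.05.

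**Figure D4:**
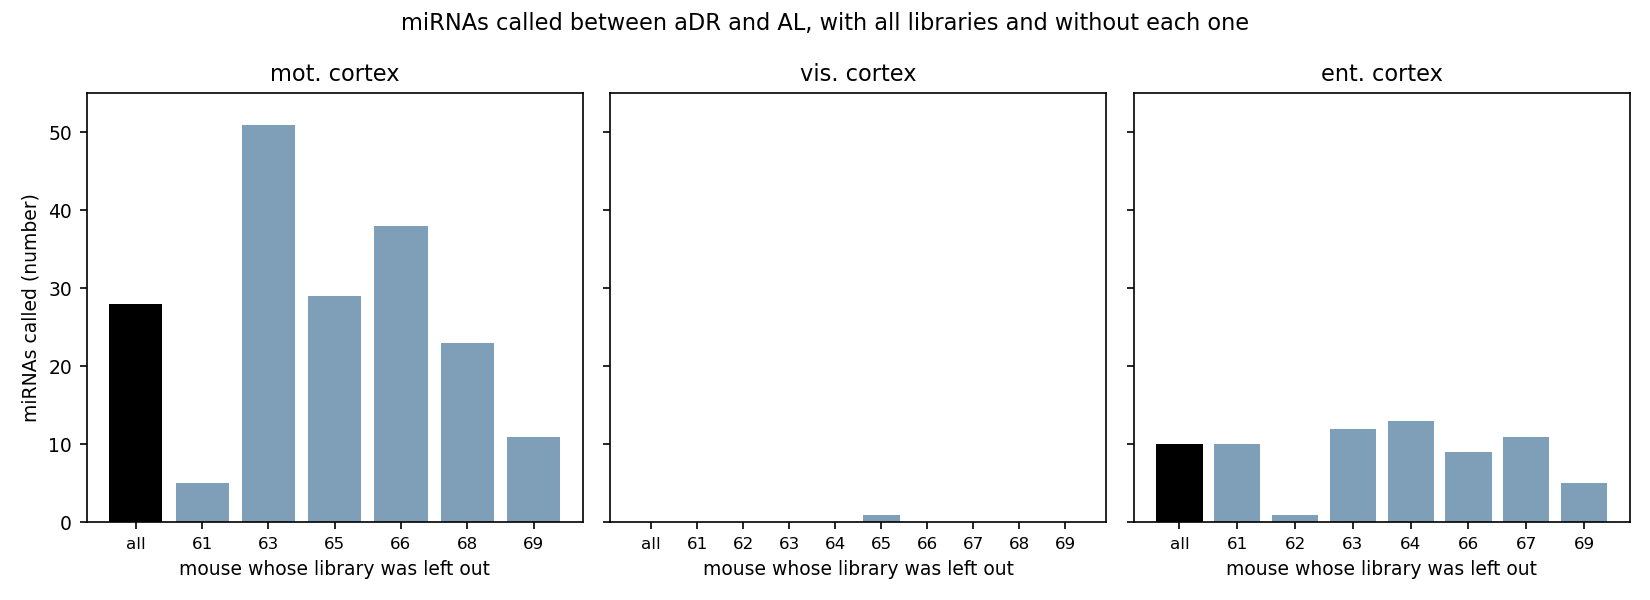
Number of miRNAs called between aDR and AL by edgeR in each cortex (vertical axis), with all libraries (black) and with the library of 1 mouse left out (blue, by mouse). The count falls from 28 to 5 without mouse 61 in mot. cortex and from 10 to 1 without mouse 62 in ent. cortex, and stays at 0 or 1 in vis. cortex.

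Whether the diet difference itself differed between cortices was tested over all 22 libraries. Limma called 0 of 1303 miRNAs (0%) for the diet by cortex interaction, with 72 at an unadjusted p below 0.05. MiR-7075-3p and miR-132-3p both had a limma adjusted p of 0.455. For miR-200c-3p the limma adjusted p was 0.976 and for miR-375-3p 0.976. So the calls made in 1 cortex and not in another were not shown to differ between cortices. The mean diet difference of the 3 cortices was also set against that of the other 11 regions, which come from the same mice. Limma called 0 of 1334 miRNAs (0%), with 33 at an unadjusted p below 0.05, among them miR-770-5p, whose difference was 0.60 larger in the cortices (limma adjusted p = 0.994) and miR-6240, whose difference between the sets was -1.59 log2 units.

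Erythroid miRNAs were low in the cortices, and none was called for diet. The study chose miR-451a on the libraries of all regions, a larger set that includes these, so its direction here is not independent evidence. MiR-451a, which is processed by Argonaute 2 without Dicer and is the dominant miRNA of red blood cells, had 1294 reads in all 22 libraries together. It stood at 9.44 and 3.19 CPM in aDR mot. cortex against 1.44, 5.13, 3.33 and 3.21 in AL. In vis. cortex it stood at 3.36, 73.2, 14.3, 1.44 and 11.0 CPM against 3.70, 5.68, 2.55 and 1.45, and in ent. cortex at 3.95, 2.70, 1.95 and 3.99 against 0.156, 0.635 and 2.00. The vis. cortex library of mouse 62 was the highest with 431 reads, and the groups overlapped in each cortex. Log2 differences were 0.98 (SE 0.38), 2.54 (SE 0.68) and 1.65 (SE 1.09) in mot., vis. and ent. cortex, with edgeR adjusted p of 0.237, 0.723 and 0.994, and over the 3 cortices the difference was 1.43 (SE 0.55, limma adjusted p = 0.706).

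With the mouse as the unit, log2 CPM of miR-451a centred on each cortex averaged 0.780 ± 1.19 (SD, 5 mice) in aDR and -0.682 ± 0.487 (SD, 4 mice) in AL. Mice 61, 62, 64 and 67 lay above each AL mouse, and aDR mouse 65, at -1.03, lay between AL mice 63 (-1.35) and 68 (-0.632). The difference of 1.46 had an exact two-sided permutation p of 0.0635, which was 0.190 after adjustment over the 9 miRNAs tested in this way, where the smallest p that 5 against 4 mice allow is 0.0159. Each cortex was centred midway between its AL and aDR means, and this was not redone for each permutation. The permutation p-values over mice are therefore approximate, although every permutation was counted. Within cortices the exact permutation p was 0.533 in mot., 0.206 in vis. and 0.114 in ent. cortex, and the smallest possible values were 0.133, 0.0159 and 0.0571. MiR-144-3p, from the transcript of miR-451a, was found with at most 9 reads per library and with 0 in ent. cortex. MiR-486a-5p stood at 7.11, 3.57, 2.67, 1.15 and 2.15 CPM in aDR vis. cortex against 1.52, 2.11, 0.882 and 2.18 in AL, and its difference over mice was 0.57 (exact permutation p = 0.0635, adjusted 0.190). MiR-486b-5p, whose values were nearly those of miR-486a-5p in each library so that both count as 1 measurement, differed by 0.58 (exact permutation p = 0.0476, adjusted 0.190). The 3′ strands miR-486a-3p and miR-486b-3p differed by 0.06 and 0.19 (exact permutation p = 0.873 and 0.698). With both 5′ strands of miR-486 counted once, the erythroid list gave 5 measurements over the 3 cortices. Of these, 5 had a positive difference, as did 55.6% of all miRNAs, and 0 were called. Their median log2 difference was 0.51 against 0.05 for all miRNAs. They are not independent, since miR-451a and miR-144-3p share a transcript. With all members counted, 4 of 6 were positive in mot. cortex, 4 of 6 in vis. cortex and 5 of 5 in ent. cortex.

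The age-linked miRNAs of the study were not called in any cortex. MiR-155-5p, an inflammatory miRNA of microglia and leukocytes, stood at 23.3 and 26.3 CPM in aDR mot. cortex and 18.9, 25.2, 21.4 and 27.5 in AL. In vis. cortex it stood at 16.7, 13.4, 21.5, 19.4 and 21.4 against 14.1, 18.3, 16.5 and 19.8, and in ent. cortex at 37.3, 23.6, 9.37 and 16.8 against 11.1, 10.2 and 18.4. The groups overlapped in each cortex, and the difference over mice was 0.23 (exact permutation p = 0.206, adjusted 0.357). MiR-146a-5p, which dampens Toll-like receptor signalling, had 238, 277, 265, 330.2 and 561 CPM in aDR vis. cortex against 311, 391, 465 and 477 in AL. Over mice it differed by -0.17 (exact permutation p = 0.143, adjusted 0.321). MiR-5100 averaged 0.255 CPM over the cortex libraries and differed by 0.05 (exact permutation p = 0.841).

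**Figure D5:**
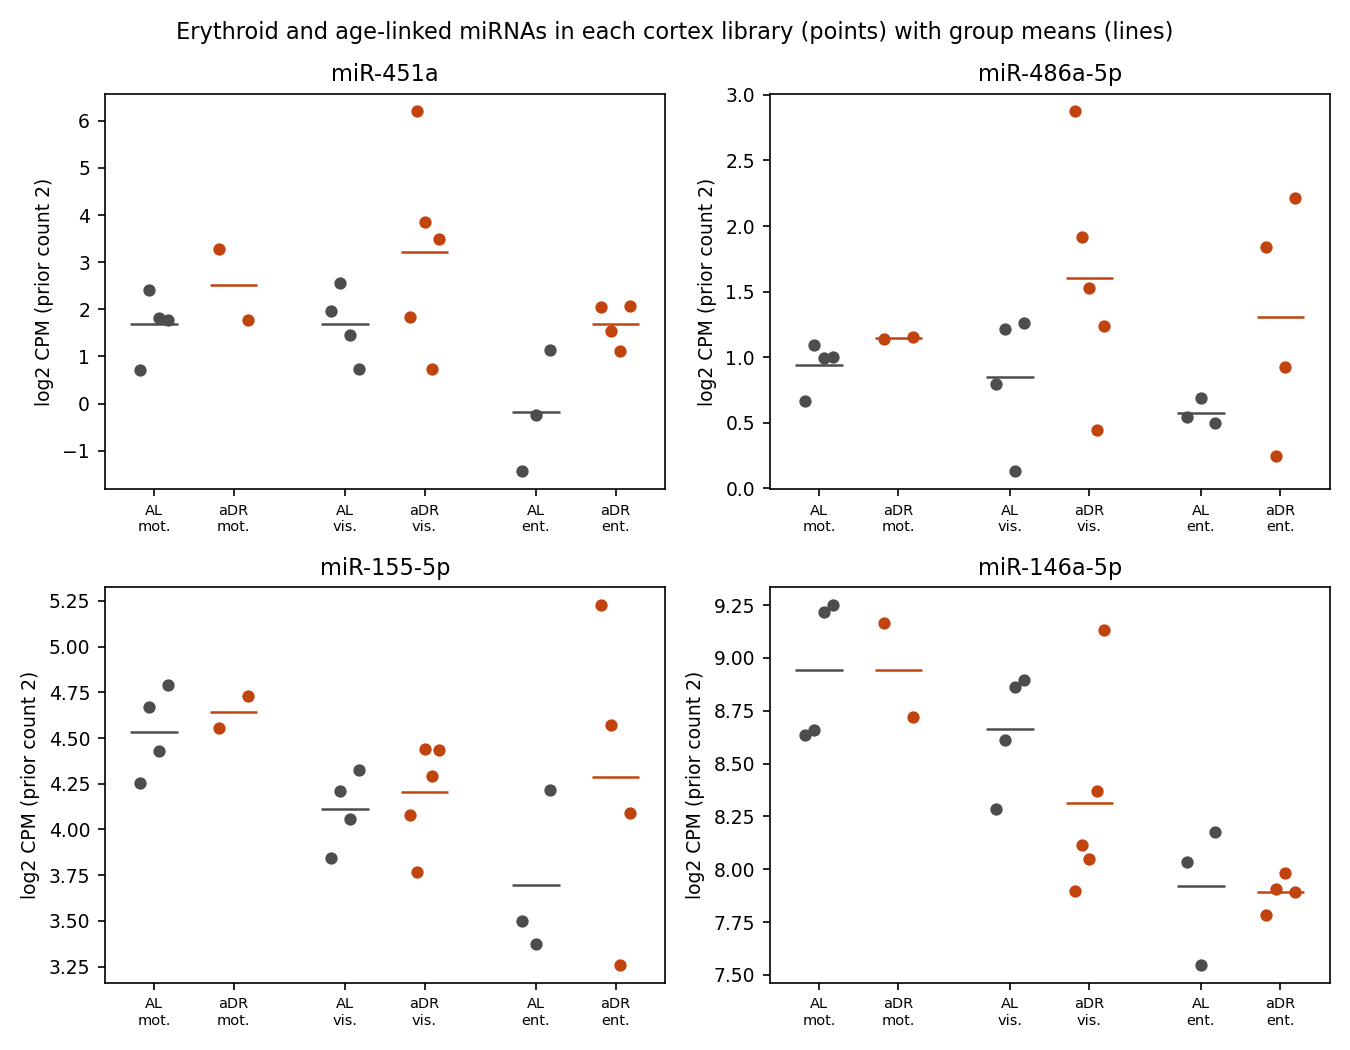
Levels of miR-451a, miR-486a-5p, miR-155-5p and miR-146a-5p in each of the 22 cortex libraries (points, log2 CPM with a prior count of 2), by cortex and diet, with group means as lines. The vertical axis differs between panels, miR-451a is highest in 1 aDR library of vis. cortex, and the diets overlap in every panel and cortex apart from miR-486a-5p in mot. cortex, where both aDR points lie just above the AL points.

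The ends of the mature strands were compared as the share of reads that the most abundant form (isomiR) of a miRNA held. For miR-451a this was the form that the table names 0F_1T, with 41.4% of 1286 reads, before the reference form 0F_0T with 24.3%. Its share averaged 42.7% ± 17.2 (SD, 11 aDR libraries) and 56.5% ± 23.6 (SD, 11 AL libraries), but libraries held between 1 and 430 miR-451a reads, so single shares were coarse, as in AL ent. cortex, where 1 of 1 read gave 100% and 15 of 15 reads gave 100% (exact Clopper-Pearson 95% interval from 78.2%, counting error only). Averaged per mouse after centring by cortex, the share was 17.1 percentage points lower in aDR (exact permutation p = 0.0476, adjusted 0.490 over 12 tests). The centring was that used for the levels of miR-451a, so the p-values over mice are approximate here too. For miR-155-5p the reference form held 31.1% of the reads and the mouse means differed by 0.453 percentage points (exact permutation p = 0.841), and for miR-146a-5p it held 36.2% and they differed by -2.60 points (exact permutation p = 0.286).

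The lists describe the remaining pathways. Among 10 neuronal miRNAs, 5 had a positive pooled difference and 0 were called, miR-124-3p differing by -0.01 and miR-9-5p by -0.36. Of 7 microglial and leukocyte miRNAs, 4 were positive and 0 called, and miR-150-5p, a lymphocyte miRNA, differed by 0.46 (limma adjusted p = 0.706). Of 5 endothelial and mural miRNAs, 1 was positive and 0 called, with miR-126a-3p at -0.06. All 4 oligodendrocyte miRNAs were positive and 0 called, with a median of 0.41. In ent. cortex that list had a median of 1.27, and its summed level ranged from 278 to 2048 CPM in aDR, highest in mouse 62, and from 242 to 689 CPM in AL. Of 8 choroid plexus and ependymal miRNAs, 3 were positive and 0 called, and miR-204-5p, abundant in choroid plexus, differed by 0.27.

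Of the 14 miRNAs known from insulin and lipid metabolism, 6 had a positive pooled difference and 0 were called, with a median of -0.08. MiR-29a-3p, which is known from insulin signalling, differed by -0.11 and miR-29b-3p by 0.13. MiR-375-3p, a regulator of insulin secretion, was the 1 member called in ent. cortex, where 0.816% of all miRNAs tested were called. There mouse 62 had 93928 CPM of it and the other aDR libraries 560 to 1490 CPM, and DESeq2 gave no p for it. The 10 let-7 miRNAs, which are known to dampen insulin and IGF signalling, were all lower in aDR over the 3 cortices, between -0.40 and -0.23, with 0 called. In mot. cortex 8 of the 10 were higher, and in vis. and ent. cortex 0 of 10 were, while with total count scaling it was 5 in mot., 2 in vis. and 0 in ent. cortex. Let-7c-5p, the most abundant miRNA in 17 of the 22 libraries, had 150710 and 89589 CPM in aDR mot. cortex against 82399, 81948, 106490 and 86320 in AL, and 122770, 120990, 222920, 264310 and 177780 against 260100, 254310, 202200 and 206230 in vis. cortex, with overlapping groups in both. In the miR-17-92 cluster 8 of 11 were positive and 0 called, and miR-92a-3p differed by 0.54 (SE 0.18, limma adjusted p = 0.618). In the miR-379/410 cluster 15 of 29 were positive and 0 called, and miR-541-5p, its most abundant member, differed by -0.24. The 74 tested miRNAs of the Sfmbt2 cluster gave 63 separate measurements, since some had the same reads in all 22 libraries, and of these 22 were positive and 0 called, with a median of -0.21. For all miRNAs, 55.6% were positive over the 3 cortices. With total count scaling, which moved the median log2 difference of all miRNAs from 0.05 to 0.21, the medians of the insulin and lipid list (0.06), the hindbrain list (0.08) and the endothelial and mural list (0.10) turned positive. So did that of the age-linked list, from -0.14 to 0.14. The 4 hindbrain miRNAs had 2 positive differences and the 5 activity-regulated ones 3.

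The aging cohort gave a comparison in other mice, between female mice fed ad libitum at 3 and 21 months of age, with 5 libraries per age and cortex except for 4 at 21 months in ent. cortex. EdgeR called 5 of 1051 miRNAs (0.476%) in mot. cortex, 0 of 1053 (0%) in vis. cortex and 0 of 1056 (0%) in ent. cortex, with 78, 194 and 80 at an unadjusted p below 0.05. The 5 were miR-128-1-5p, miR-1895, miR-339-5p and miR-344-3p, which were higher at 21 months, and miR-429-3p, which was lower. MiR-128-1-5p averaged 9.21 ± 2.83 CPM at 3 months and 26.3 ± 10.9 at 21 months (SD, n = 5 each), and miR-429-3p averaged 229 ± 342 and 15.5 ± 6.53 CPM. In vis. and ent. cortex miR-128-1-5p differed with age by -0.91 (SE 0.77) and -0.58 (SE 1.09), with no call. In mot. cortex it was called higher with age and higher in aDR. MiR-429-3p was called lower in both, but its diet call was lost without AL mouse 69. At 18 against 3 months neither miRNA was called in mot. cortex, where the 3 calls were miR-132-3p, miR-1895 and miR-193a-3p. Of the 8 olfactory bulb markers, among them miR-429-3p, 8 were lower at 21 than at 3 months in mot. cortex and 1 was called, with a median log2 difference of -3.80 against 0.01 for all miRNAs tested. At 18 months 8 were lower and 0 called, with a median of -1.85. With total count scaling the 5 age calls at 21 months, 4 higher and 1 lower, became 15, 5 higher and 10 lower, and 8 of the 10 were these markers. Their sum ran from 17.0 to 1424 CPM (median 86.5) at 3 months and from 18.3 to 37.6 CPM (median 26.6) at 21 months, and their part in the age and diet differences of miR-429-3p was not tested. MiR-155-5p was higher at 21 months by 0.85, 1.43 and 1.89 log2 units in mot., vis. and ent. cortex (edgeR adjusted p = 0.0971, 0.114 and 0.568), beside diet differences of 0.11, 0.09 and 0.66. MiR-451a differed with age by 1.49, 1.80 and -0.32 with SEs of 0.99, 1.01 and 1.26. MiR-376b-3p differed with age by 0.29, 0.18 and 0.37, with no call.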

How the data were processed

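The authors prepared small RNA libraries from punched brain regions, sequenced them on a BGISEQ500RS, processed reads with miRMaster and mapped them with Bowtie to GRCm38 (mm10 per the labels) and miRBase. The deposited table holds estimated counts per mature miRNA and library, not normalised, of which 0.855% of the values of the cortices were not whole. These were rounded to whole numbers. A second deposited table holds counts per isomiR. Groups came from the treatment and region in the sample labels. No further column of per-sample values was left unmapped (0 columns).

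A miRNA was tested in a cortex when 1 or more regions of the diet experiment had 5 reads or more in at least 10% of their libraries, which kept 1334 of 1966. Of these, 1303 had a read in the cortex libraries, and each cortex was tested on those with a read there (1265 in mot., 1263 in vis. and 1225 in ent. cortex). The edgeR quasi-likelihood test (edgeR 4.0.16, R 4.3.3, TMM scaling) compared diets within a cortex, with the SE taken as the log2 difference over the square root of F. Limma 3.58.1 (voom weights, region term, mouse as block) compared them over cortices. DESeq2 1.42.0 was an alternative. Adjusted p-values are Benjamini-Hochberg over all miRNAs tested, and calls also need a fold of 1.5. Log2 CPM used a prior count of 2. Libraries of a mouse in different cortices had a mean correlation of 0.160 in their deviations from the group means (17 pairs), against -0.0439 for libraries of different mice of 1 diet (61 pairs), and the pairing comes from the mouse number in the labels. The consensus correlation was 0.0697. In counts simulated for the comparisons, 2-fold changes were recovered for 27% of the changed miRNAs in mot. cortex (1237 miRNAs), 69% in vis. cortex (1239), 53% in ent. cortex (1198) and 98% over the 3 cortices (1294), and 4-fold changes for 97%, 100%, 100% and 100%. The simulated counts had the same dispersion for every miRNA, no mouse effect and no difference between cortices, and only miRNAs of at least 10 CPM were changed. These shares therefore do not hold for miRNAs that spread more widely, and they do not exclude 2-fold diet differences.

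Named miRNAs were the 5 with the smallest p in each direction among those called in a cortex, the 3 with the smallest p and a mean of at least 10 CPM in each direction per cortex (5 over the 3 cortices), and the erythroid and age-linked lists, with 2 to 4 abundant members of other lists. MiRNAs shown as relatives or other arms of these, and those given to complete the calls, were chosen after their values were seen. The comparisons, members and lists were chosen with earlier results of these data known. Mature miRNAs of near-identical sequence, such as miR-486a-5p and miR-486b-5p, cannot be told apart by their reads. Coordinates and annotation are those of GRCm38.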

Additional observations from a re-analysis of the deposited data

Results flagged for a closer look

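Among 143 groups of 4 or 5 libraries of 36 named miRNAs, 5 (3.50%) held a library far from the others of its cortex and diet by Dixon's criterion on log2 CPM, which chance meets in about 1 in 20 groups. On that scale miR-375-3p in ent. cortex of aDR mouse 62 was not flagged, although it stood at 93928 CPM and the next aDR library at 1490 CPM. MiR-183-5p stood at 58.7 CPM in mot. cortex of AL mouse 69, where the next library had 6.65 CPM. It stood at 12.1 CPM in vis. cortex of aDR mouse 67, with 3.16 CPM in the next. MiR-185-5p was at 1403 CPM in vis. cortex of AL mouse 63, below the 2132 CPM of the next library. MiR-3072-3p was at 89.9 CPM in ent. cortex of aDR mouse 67, the library with the fewest reads, and at 37.1 CPM in the next. MiR-7080-5p was at 47.7 CPM in ent. cortex of aDR mouse 62, below the 151 CPM of the next. Groups of 2 or 3 libraries, such as the aDR group of mot. cortex, could not be examined in this way.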

How the results depend on the processing

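Among the named miRNAs, only those called in mot. or ent. cortex had a call to lose, and most of the others could only stay uncalled or change sign. The alternative that used the adjusted p alone repeated the main fit, so it could change no value. With these included, of the values of named miRNAs recomputed under alternatives, 605 kept their direction and their side of the threshold, 54 lost the threshold, 1 gained it and 10 changed sign, none of them passing the threshold after the change. These were miR-376b-3p in ent. cortex (log2 difference -1.33 to 0.021 with a mouse left out, positive without mouse 66), and over the 3 cortices miR-486a-3p (-0.22 to 0.30, negative without mouse 62, at -0.024, and without mouse 69), miR-486b-3p (-0.24 to 0.62, negative without mouse 69) and miR-5100, with -0.14 (-0.39 to 0.067, positive without mouse 64). In the edgeR fit without the mouse block miR-486a-3p was at -0.0038, miR-486b-3p at -0.031 and miR-5100 at 0.26, and miR-5100 was at 0.14 with total count scaling and at 0.054 over mouse means. The call counts depended on the processing. Mot. cortex, with 28 calls, gave 11 with total count scaling (7 higher and 4 lower, in place of 24 and 4), 2 when only miRNAs of at least 10 CPM were tested (382 miRNAs), 11 with DESeq2 and 0 in 1 edgeR fit over all diet libraries, and 5 to 51 when a mouse was left out. Ent. cortex, with 10, gave 4, 0, 1 and 0 under the same alternatives, 1 to 13 with a mouse left out, and 2 without mice 62 and 67, chosen after seeing the data. Vis. cortex, with 0, gave 1 (miR-451a) with no filter beyond 1 read and 0 to 1 with a mouse left out. The pooled count of 0 became 1 without mouse 63 (range 0 to 1). Without the replicate block it remained at 0, with 94 instead of 82 miRNAs at an unadjusted p below 0.05, and the block changed no other call. The age calls of mot. cortex, 5, became 3 for 18 against 3 months and 15 with total count scaling (5 higher and 10 lower, in place of 4 and 1). That scaling moved the median log2 diet difference of all miRNAs from 0.02 to -0.19 in mot., 0.05 to 0.39 in vis. and 0.17 to 0.55 in ent. cortex.

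The mouse-mean difference of miR-451a of 1.46 lay between 1.12 and 2.00 with a mouse left out, and passed an exact permutation p of 0.05 without mouse 65 (2.00). The main-form share of miR-451a, -17.1 percentage points, was 4.97 points for the reference form and -21.1 to -14.7 with a mouse left out, an alternative added after seeing the data. Its exact permutation p, 0.0476 unadjusted and 0.490 adjusted, was above 0.05 unadjusted in 7 of the 9. The miR-155-5p share difference of 0.453 points ranged from -1.58 to 2.12 and reversed without mouse 63 (-1.58), mouse 64 (-0.389) and mouse 66 (-0.0846). The causes were not tested. The 2 aDR libraries of mot. cortex and miR-451a, with 1 to 431 reads per library, limit precision. Intervals cover counting error only.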
